A study of Ovis aries with 16 samples.

Results

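The PLIN5-PLIN4 locus is a window of 63041 bp on sheep chromosome 5, from 17157408 to 17220448 (Oar_v3.1), that holds the neighbouring perilipin genes PLIN5 and PLIN4 with 20 kb on either side. Its members are all methylation peaks that overlap the window by at least 1 bp in the peak lists of 16 fetuses. These were 434 of 6410742 peaks. With the peaks of the whole genome merged wherever they shared at least 1 bp, they fell into 33 regions, of which 25 had a peak in at least 2 fetuses and are called consensus regions, out of 512238 in the genome.

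The peaks came from longissimus dorsi (LD) muscle of fetuses of Polypay ewes that received a hay diet (8 fetuses, hay) or a corn diet with some haylage (8 fetuses, corn) from mid-gestation until collection in late gestation, with diets of equivalent metabolizable energy. DNA fragments with methylated CpG sites were captured with a methyl-binding domain protein and sequenced, and a peak marks a stretch where captured fragments pile up. A peak therefore shows enrichment of methylated DNA over a stretch of DNA, not a percentage of methylation at a CpG site. In the study's list of pools, all 8 hay fetuses and most of the 8 corn fetuses were in twin pairs. Each diet was therefore given to fewer ewes than there were fetuses. The same list holds both sexes in each diet, in equal numbers in hay and with more males than females in corn. The labels do not give the sex of the samples, so the sexes were not separated here. Nor do the labels tie the samples to ewes, and every p-value and interval below treats the 16 fetuses as independent. Twins from the same ewe would make the p-values too small and the intervals too narrow.

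Perilipins coat the surface of lipid droplets, the stores of triacylglycerol in cells, and regulate the access of lipases to them. PLIN5 is abundant in oxidative tissues such as heart and skeletal muscle, where it holds droplets close to mitochondria and binds the lipase PNPLA2 and its co-activator ABHD5. PLIN4 is found mainly in adipose tissue and muscle and coats small, newly forming droplets. DNA methylation is usually low at active gene starts and high within the bodies of many transcribed genes. The labelled tissue could not be checked against marker genes, since peak lists carry no expression.

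PLIN5 (ENSOARG00000009333) runs from 17177408 to 17188390, over 10983 bp, and PLIN4 (ENSOARG00000009400) from 17192314 to 17200448, over 8135 bp, with 3923 bp between them. The strand and exons of these genes in Oar_v3.1 are not given in the sources used here, so gene ends are called lower and upper by coordinate and no peak was assigned to an exon, intron or UTR. In RefSeq's annotation of a different assembly (ARS-UI_Ramb_v3.0), LRG1 precedes PLIN5, and HDGFL2, UBXN6 and CHAF1A follow PLIN4. Positions below are as in Oar_v3.1, and plotted distances are counted from the lower end of PLIN5.

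The locus was rich in peaks in every fetus. Peaks covered 22.5% of its bases in the lowest, 30.6% in the median and 36.5% in the highest hay fetus. The corn values, in the same order, were 20.1%, 30.2% and 37.3%. Against 41008 windows of the same length across the genome, whose median cover was 4.54%, the mean cover of the locus (30.1%) stood at percentile 94.2. The 10 windows around it ranged from 12.2% to 33.1%, so high cover was shared by the surrounding stretch of the chromosome.

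The peaks formed blocks that recurred from fetus to fetus, as the map of peaks by fetus shows. A peak was found in all 16 fetuses at 9 of the 25 consensus regions (36%), against 17.3% of the consensus regions genome-wide. A further 7 regions had a peak in 13 to 15 fetuses, of which 6 lay before PLIN5 and 1 after PLIN4. The remaining consensus regions had few fetuses, with 2 regions in 7 to 12 fetuses and 7 regions in 2 to 6. Of the 8 regions seen in a single fetus, 5 belonged to corn 4, including the only peaks in the lower part of PLIN4.

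**Figure D1:**
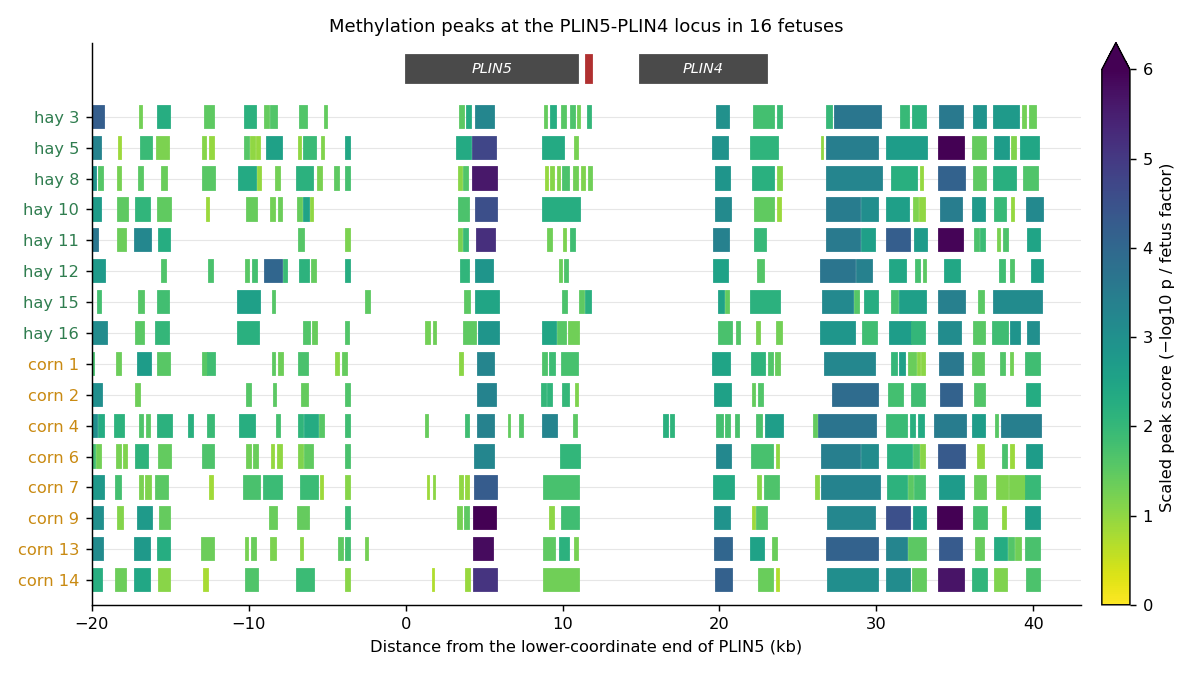
Peaks of each fetus (rows, hay in green and corn in orange type) along the locus, with distance from the lower-coordinate end of PLIN5 in kb on the horizontal axis. Colour gives the scaled peak score, gray boxes are the genes and the red box is the published diet region. The 9 blocks found in all 16 fetuses line up across both diets, and stretches of 3525 bp and 4579 bp around the lower ends of PLIN5 and PLIN4 hold no peak.

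Peaks were absent around the lower end of each gene. The longest stretch with no peak in any fetus ran from 17189309 to 17193887 (4579 bp), from between the genes into PLIN4. The stretch next in length, from 17175158 to 17178682 (3525 bp), spanned the lower end of PLIN5. In none of the 16 fetuses did a peak lie within 1 kb of either lower end. From the lower end of PLIN5 the nearest peak was 1275 bp away in hay 16 and 3555 bp in corn 2, the extremes of all fetuses, with a median of 3350 bp. From the lower end of PLIN4 the distance ranged from 1574 bp in corn 4 to 4530 bp in hay 12, with a median of 3858 bp. A lack of peaks does not show that the DNA is unmethylated, since stretches with few CpG sites also give few captured fragments. The CpG content of these stretches was not examined.

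The upper ends showed the opposite arrangement, and a peak lay within 1 kb of each of them in 16 of 16 fetuses. The largest distance at the upper end of PLIN5 was 606 bp (hay 12), and at that of PLIN4 it was 468 bp (hay 16). The last base of PLIN5 itself lay under a peak in 3 hay and 7 corn fetuses, while that of PLIN4 did so in 5 hay and 5 corn fetuses. The remaining hay fetuses had their nearest peak 16 to 606 bp from the upper end of PLIN5, and the remaining corn fetus 69 bp from it. These counts were not tested between diets. The study's list of diet regions gives positions for 28 other genes annotated to those regions. They were thus chosen through regions with peaks in these same fetuses, and some are very short, down to 81 bp. They do not stand for gene ends in general. Of these, 9 had no fetus with a peak within 1 kb of the lower end, and 11 had all 16. At the upper end, 6 had none and 11 had all 16. Each end was counted separately.

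**Figure D2:**
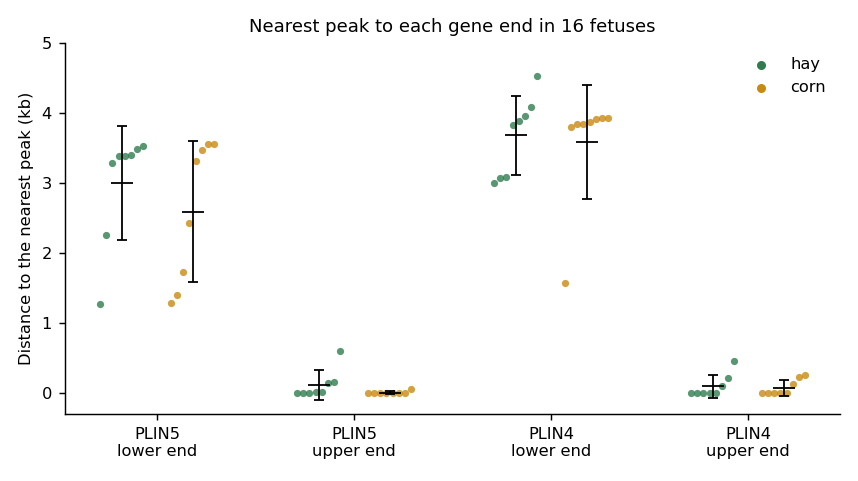
Distance in kb from each end of PLIN5 and PLIN4 (by coordinate) to the nearest peak, with a point for each of the 8 hay and 8 corn fetuses and the mean ± SD as a bar. Distances at the lower ends are between 1275 and 4530 bp, and those at the upper ends are between 0 and 606 bp.

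Within PLIN5, most peak sequence lay in 2 blocks, one in the middle of the gene and a weaker one at its upper end. Peak strength is given as the peak score, −log10 of the deposited p-value divided by a factor for each fetus (0.765 to 1.38) that puts the fetuses on the same scale. The middle block (17180695 to 17183334, 2640 bp) scored 2.48 in the lowest, 3.91 in the median and 5.62 in the highest hay fetus. In corn fetuses it scored 3.25, 3.83 and 6.32. The diets overlapped over most of this range, with means of 3.95 ± 1.21 (SD, n = 8) in hay and 4.34 ± 1.25 (SD, n = 8) in corn. The mean score stood at the 93.5th percentile of the regions found in every fetus. Its core of 866 bp (17182103 to 17182968) lay under a peak in 16 of 16 fetuses.

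The block at the upper end of PLIN5 (17186085 to 17188519, 2435 bp) was more broken up. It held between 1 and 5 peaks in a fetus, no base of it was shared by more than 14 fetuses, and its scores were 2.03 ± 0.341 (SD, n = 8) in hay and 2.05 ± 0.571 (SD, n = 8) in corn. Its covered length ranged from 203 bp in hay 15 to 2312 bp in hay 10, and from 1009 bp in corn 2 to 2268 bp in corn 14. The hay fetuses were thus spread more widely than the corn fetuses, and their ranges overlapped. Elsewhere in PLIN5, 2 short regions had a peak in 3 fetuses each (1 hay and 2 corn at both), and 2 more were seen in corn 4 alone.

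PLIN4 likewise held 2 blocks found in every fetus, both in its upper part. The inner block (17196971 to 17198314, 1344 bp) scored 1.72, 2.90 and 3.39 in the lowest, median and highest hay fetus. The corn values were 1.79, 2.74 and 4.16, and the diets overlapped. The other block (17199387 to 17201467, 2081 bp) crosses the upper end of PLIN4. It was the weakest of the 9 by mean score, with 1.84 ± 0.348 (SD, n = 8) in hay and 1.92 ± 0.469 (SD, n = 8) in corn, and only 37 bp of it lay under a peak in all 16 fetuses.

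The densest part of the locus was the 20 kb after PLIN4, where 15.4% of bases lay under a peak in all 16 fetuses. The same share was 7.89% in PLIN5, 4.45% in PLIN4 and 0% both between the genes and in the 20 kb before PLIN5. The longest block of the locus (17203423 to 17207772, 4350 bp) lies in this part and was also the least variable of those found in every fetus. Its score was 3.39 ± 0.281 (SD, n = 8) in hay and 3.50 ± 0.377 (SD, n = 8) in corn, a coefficient of variation of 9.47% over the 16 fetuses.

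The other 3 blocks after PLIN4 varied more. The block from 17211160 to 17213148 scored 2.43, 3.52 and 6.41 in the lowest, median and highest hay fetus and 2.73, 4.22 and 6.41 in corn. Its mean stood at the 93.8th percentile of regions found in every fetus, close to the middle block of PLIN5. The blocks from 17208069 to 17210625 and from 17214867 to 17218049 had mean scores of 2.70 ± 0.658 and 2.76 ± 0.337 in hay (SD, n = 8) and 2.76 ± 0.867 and 2.36 ± 0.565 in corn (SD, n = 8). Before PLIN5, the block at the edge of the window (17155115 to 17158392) was the only region there with a peak in all 16 fetuses, with scores of 3.09 ± 0.656 (SD, n = 8) in hay and 2.61 ± 0.568 (SD, n = 8) in corn. This block extends beyond the window, where the bases that all fetuses shared lie, and its scores in hay 15 and corn 1 come from peaks just outside the window.

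**Figure D3:**
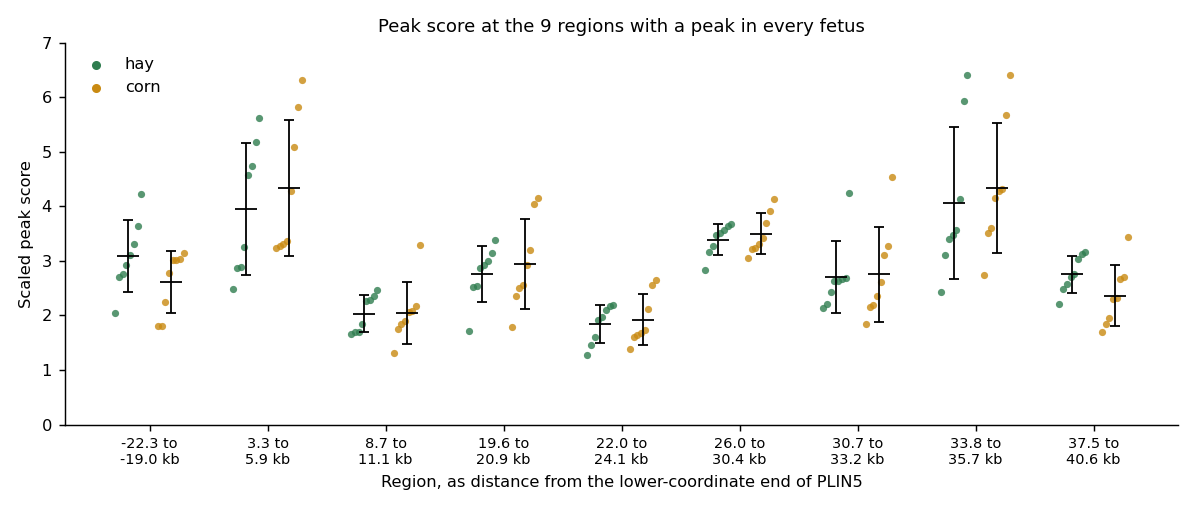
Scaled peak score (−log10 p divided by the fetus factor) at the 9 regions found in every fetus, named by their distance from the lower-coordinate end of PLIN5. Points are fetuses and bars the mean ± SD of 8 hay and 8 corn fetuses. The ranges of the diets overlap at each of the 9 regions.

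The question of the design is whether maternal diet changed methylation of the fetal muscle. Over the whole locus, the covered share was 29.9% ± 4.70 (SD, n = 8) in hay and 30.2% ± 5.36 (SD, n = 8) in corn. The difference of -0.273 percentage points (95% interval -5.66 to 5.21, by inversion of the test) was far smaller than the spread within either diet (two-sided exact permutation test, p = 0.914). A fit of all 41008 windows with limma and Benjamini-Hochberg adjustment gave an adjusted p of 0.999 for the locus. No window was called at an adjusted p under 0.1 (0% of windows), and 3.47% had an unadjusted p under 0.05.

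The number and strength of the peaks also overlapped between diets. Hay fetuses had 27 ± 3.46 peaks (SD, n = 8) in the locus and corn fetuses 27.25 ± 5.70 (SD, n = 8), a difference of -0.25 (exact permutation test, p = 0.960). The lowest, median and highest counts were 22, 27 and 33 in hay and 20, 28 and 37 in corn. The mean score of a fetus's peaks was 2.10 ± 0.184 (SD, n = 8) in hay and 2.03 ± 0.238 (SD, n = 8) in corn (exact permutation test, p = 0.495). A difference in covered share of up to about 5 percentage points in either direction lies within the interval, so the data leave room for a diet effect of at least that size. The interval treats twins as independent fetuses, which would make it too narrow.

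The stretch between the genes contains the published diet region, a region of 388 bp that was chosen for a diet difference in these same fetuses, so its cover is not independent of that choice. Here hay fetuses had 4.56% ± 5.51 of bases under a peak (SD, n = 8) and corn fetuses 1.13% ± 1.26 (SD, n = 8), a difference of 3.43 percentage points (95% interval -0.833 to 7.63) that the test did not separate (exact permutation test, p = 0.138). The hay mean came from few fetuses, since hay 15 had 13.7%, hay 8 had 9.99% and hay 3 had 9.13%, while 3 hay and 1 corn fetus had 0%. The corn values did not exceed 3.29%. Without the bases of the published diet region, an alternative added after the data were seen, the shares were 2.23% ± 2.35 (SD, n = 8) in hay and 1.26% ± 1.40 (SD, n = 8) in corn (exact permutation test, p = 0.333).

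In PLIN5 the covered share was 27.7% ± 8.72 (SD, n = 8) in hay and 27.4% ± 6.65 (SD, n = 8) in corn (exact permutation test, p = 0.933). In PLIN4 it was 19.9% ± 3.24 (SD, n = 8) in hay and 21.0% ± 2.24 (SD, n = 8) in corn (exact permutation test, p = 0.420). Both gene bodies thus overlapped almost entirely between diets. The 20 kb before PLIN5 had 21.9% ± 4.69 (SD, n = 8) in hay and 23.0% ± 6.71 (SD, n = 8) in corn (exact permutation test, p = 0.731). The 20 kb after PLIN4 had 48.3% ± 7.45 (SD, n = 8) in hay and 48.5% ± 7.93 (SD, n = 8) in corn (exact permutation test, p = 0.959). These 5 p-values are not adjusted for one another.

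**Figure D4:**
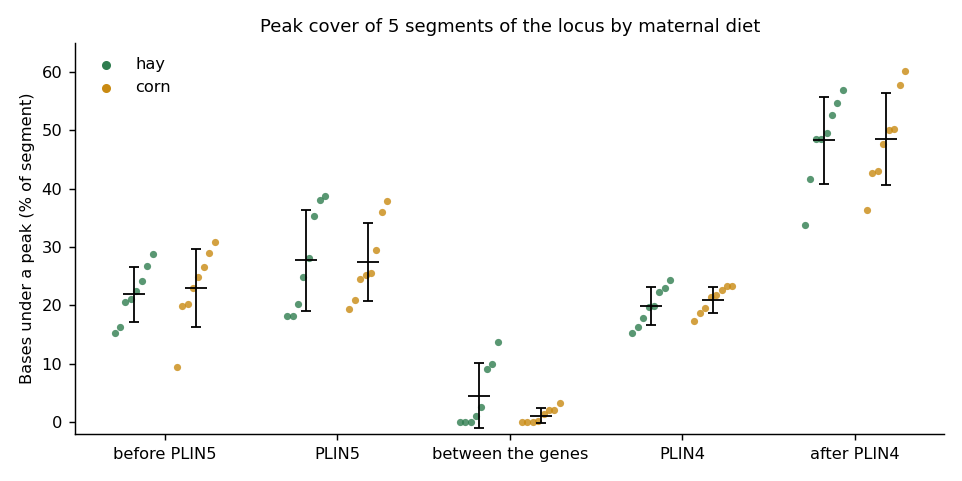
Share of bases under a peak (percent) in 5 segments of the locus, with a point for each fetus and the mean ± SD of 8 hay and 8 corn fetuses. The diets overlap in every segment, and between the genes 3 hay fetuses (9.13% to 13.7%) lie above all corn fetuses (at most 3.29%).

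Region by region, none of the 25 consensus regions was called between diets by limma (Benjamini-Hochberg adjusted p under 0.1, which 0.000586% of regions reached genome-wide). The smallest adjusted p in the locus was 0.919. An unadjusted limma p under 0.05 was reached by 3.16% of regions genome-wide and, in the locus, by 1 region, the published diet region described below. That region was chosen for a diet difference in these same fetuses, so its p is not evidence of a difference. The scores of the diets overlapped at all 25, and 0.00605% of regions genome-wide had scores that did not. At the 9 regions found in every fetus, the difference in log2(score + 1), hay minus corn, lay between -0.11 and 0.18, with standard errors of 0.117 to 0.171 and unadjusted limma p between 0.185 and 0.979. The mean of log2(score + 1) was higher in corn at 6 of the 9 and in hay at 3, where 49.4% of such regions genome-wide were higher in corn. Over all 25 it was higher in corn at 15 and in hay at 10, against 46.1% higher in corn genome-wide. The block over the upper end of PLIN5, at 0.0042, counts as higher in hay on this scale, although its plain mean score was higher in corn.

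Presence of a peak was likewise close between diets, with more hay fetuses at 4 regions, more corn fetuses at 9 and equal numbers at 12. Genome-wide these shares were 28.9%, 32.6% and 38.4%. By Fisher's exact test no region of the locus had an unadjusted p under 0.05, which 0.590% of regions reached genome-wide. The widest gap in favour of corn was at 17173443 to 17173866, before PLIN5, with a peak in 8 of 8 corn and 5 of 8 hay fetuses (Fisher's exact test, p = 0.2, adjusted p = 1), a region picked after its values were seen. Its scores were 1.07, 1.69 and 1.90 in the lowest, median and highest corn fetus and 0, 1.41 and 2.43 in hay, so hay held both the lowest and the highest values.

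The published diet region (17188921 to 17189308, 388 bp) lies between the genes and coincides with a consensus region, the 1 with an unadjusted limma p under 0.05. It was chosen for a diet difference in these same fetuses, so its values are a description and were not used as evidence of a difference. Of the 8 hay fetuses, 3 had a peak there, and none of the 8 corn fetuses did. The unscaled scores were 1.67 in hay 3, 1.31 in hay 8 and 1.90 in hay 15, against a median of 1.47 over the whole series, and the other 5 hay fetuses had no peak there. The same 3 fetuses had the highest cover between the genes. At least 3 hay and no corn fetuses with a peak were found at 1.49% of consensus regions genome-wide, and the reverse, at least 3 corn and no hay fetuses, at 0.853%. The study's own call compared reads in the region with edgeR, not counts of fetuses with a peak. Its bisulfite sequencing of pooled DNA gave high methylation of this region in both diets. Averaged over the region, the diets did not differ significantly there, while the female pools did, with hay higher. A fetus without a peak here is therefore not shown to be unmethylated.

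A second region between the genes, from 17188540 to 17188811, lay on the side of PLIN5 and had a peak in hay 8 and hay 15 only (limma, difference in log2 score of 0.30, standard error 0.206, unadjusted p = 0.142, Benjamini-Hochberg adjusted p = 0.919). Both of these fetuses also had a peak in the published diet region, and their unscaled scores here were 1.17 to 1.30, below the median of all peaks. Apart from these regions, the stretch between the genes held only the upper edge of the block at the end of PLIN5.

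A base-by-base count showed where the fetuses of the 2 diets parted most. It was made by scanning the values, so no test applies, and the share of the genome with as large a gap is given beside it. At least 6 more hay than corn fetuses had a peak at 74 bp in PLIN5 (17181158 to 17181231) and at 2 bp after PLIN4. Together these made up 0.121% of the bases of the locus against 0.00232% of the genome. The locus is richer in peaks than the genome, and among bases with a peak in any fetus the shares were 0.219% and 0.0117%. The 74 bp are adjacent bases of a single stretch, not separate sites. The reverse, at least 6 more corn than hay fetuses, held for 8 bp near the upper end of PLIN5 (17187790 to 17187797), or 0.0127% against 0.0243% of the genome. Among bases with a peak in any fetus, these shares were 0.0230% and 0.1225%.

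The gap in PLIN5 was widest over 14 bp (17181164 to 17181177), where 7 hay fetuses and no corn fetus had a peak. A gap of at least 7 in favour of hay made up 0.0222% of the bases of the locus and 0.000162% of the genome, and such a gap in favour of corn 0% and 0.00290%. Among bases with a peak in any fetus, the shares were 0.0403% and 0.000814% for hay, and 0% and 0.0146% for corn. The 14 bp belong to the left shoulder of the middle block, a stretch of 980 bp (17180695 to 17181674). There the covered length was 505 bp in hay 3, 879 bp in hay 5, 432 bp in hay 8, 649 bp in hay 10, 402 bp in hay 11, 535 bp in hay 12, 339 bp in hay 15 and 532 bp in hay 16. In corn fetuses it was 164 bp in corn 1, 182 bp in corn 4, 390 bp in corn 7, 590 bp in corn 9 and 207 bp in corn 14, and corn 2, corn 6 and corn 13 had no peak there. All 8 hay fetuses were thus covered and lay above 6 of the 8 corn fetuses, while corn 7 and corn 9 lay within the hay range.

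The highest peak of each fetus in this shoulder had an unscaled score of 1.23 to 2.97 in hay and 1.06 to 1.76 in the 5 corn fetuses with a peak there, against the median of 1.47 over all peaks of the series. In the right part of the block (17181675 to 17183334) the diets lay closer together. The covered length was 1083, 1380 and 1587 bp in the lowest, median and highest hay fetus and 1051, 1206 and 1447 bp in corn. The score of the whole block, which takes its highest peak, was not higher in hay.

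**Figure D5:**
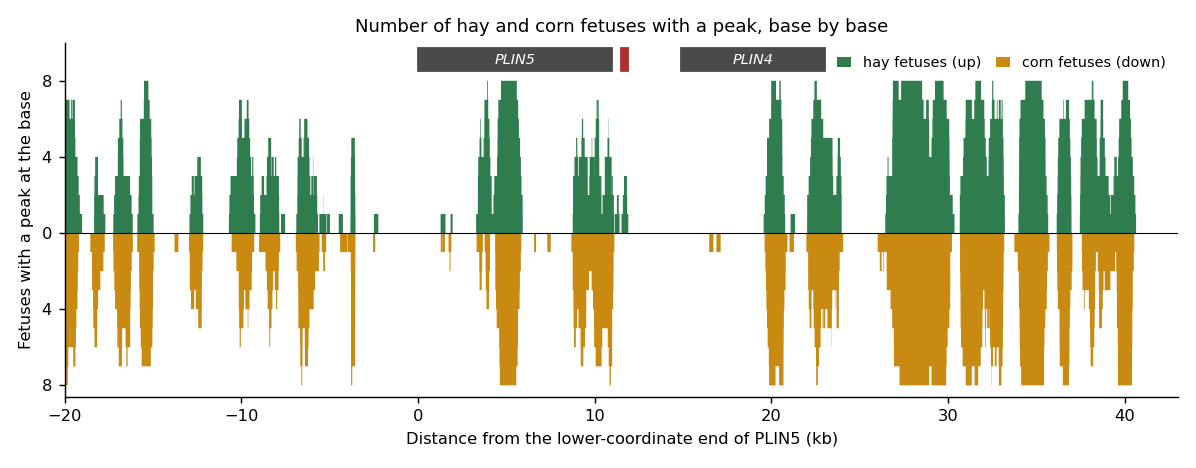
Number of hay fetuses (upward) and corn fetuses (downward, both of 8) with a peak at each base, against the distance from the lower-coordinate end of PLIN5 in kb. Gray boxes are the genes and the red box is the published diet region. The widest gaps are 7 hay and 0 corn fetuses at the left shoulder of the middle block in PLIN5, 6 hay and 0 corn after PLIN4, and 1 hay and 7 corn near the upper end of PLIN5, and the red box has 3 hay and 0 corn fetuses.

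Over the locus, 44.9% of bases had no peak in any fetus, against 80.1% of the genome, and 6.83% had a peak in all 16 fetuses, against 1.67%. Fetuses with more of the genome under peaks also had more of the locus under peaks (Pearson's r = 0.669, Spearman's rho = 0.671 over 16 fetuses, which share library and depth in both measures). Genome cover ranged from 6.11% to 11.1% between fetuses and the number of peaks from 261331 to 519923, and genome cover was 8.38% ± 1.66 (SD, n = 8) in hay and 9.0% ± 1.10 (SD, n = 8) in corn. The part of depth in the locus values was not tested, because the files hold no read counts.

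Relative to the genome cover of each fetus, the covered shares of the 2 genes varied largely apart from each other, with a Spearman's rho of 0.141 and a Pearson's r of 0.254 between PLIN5 and PLIN4 over the 16 fetuses. Among the 28 other genes of the same list, the highest positive correlations of the relative cover of PLIN4 were with TBC1D5 (rho = 0.676), ENSOARG00000020130 (rho = 0.671) and ENSOARG00000011345 (rho = 0.612). The cover of ENSOARG00000020130 was 100% in every fetus, so its value is only the inverse of genome cover, and its rho comes from the division of both genes by the same quantity. The rho of TBC1D5 was close to that value and the rho of ENSOARG00000011345 was below it. The part of the shared division in their values was not tested, so they are not read as a likeness to PLIN4. For PLIN5 the highest positive values were lower, with PLCB4 (rho = 0.329), GYG2 (rho = 0.282) and ENSOARG00000001348 (rho = 0.253) at the top. Negative values were larger in size for both genes. They reached rho = -0.8147 with MEGF11 and -0.7206 with FRMD3 for PLIN4, and -0.6 with ADAMTS12 for PLIN5. These correlations share the libraries and their depth and are given as a description.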

How the data were processed

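Per the submitters' notes and the study's methods, reads went through Trimmomatic 0.33, BWA 0.7.15 (build Oar_v3.1) and Picard 1.107, and ChIPseeqer called peaks in each fetus separately. Each peak was deposited by the authors with 1 value, read here as its p-value because it lies between 0 and 0.1352. A value of 0 was set to 1e-100.

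The positions of genes and of the diet region came from the study's list. The locus, lists and comparisons were chosen with earlier results of these data known. The score of a fetus in a region was its highest −log10 p, divided by the median ratio over the 88488 regions found in all 16 fetuses, and 0 without a peak. Single values were compared with two-sided exact permutation tests over 12870 assignments (smallest p 0.000155). Consensus regions on log2(score + 1), and windows, were fitted with limma 3.58.1 in R 4.3.3 (trend) with Benjamini-Hochberg adjustment. This step was tested on values of these data shuffled over fetuses, with a shift added to some rows. For regions that shift was larger than any difference in the locus. Shuffling also removes any likeness of twins, so the test does not show how the fit performs on smaller differences or with twins. Python 3.11.15, numpy 2.4.6, scipy 1.17.1, pandas 2.3.3 and matplotlib 3.10.9 were also used.

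Regions were named if found in all 16 fetuses, at or nearest to a gene end, between the genes, at the diet region, or with limma p under 0.05. Likeness used the Spearman correlation of gene cover relative to genome cover, and the 3 highest were named, with the most negative values beside them. The planned list of other lipid droplet genes was not used, because no annotation of Oar_v3.1 was analysed here. Depth is unknown, so no interval for counting error was given. A peak may be missing where methylation is low, where CpG sites are few or where reads are few. Dam, sex and lane were not used as covariates. Alternatives changed scaling, pseudocount, peak and region filters, overlap, window and fetuses, and 1, added after the data were seen, left out the diet region.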

Additional observations from a re-analysis of the deposited data

Results flagged for a closer look

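Of 34 groups of 8 fetuses checked for a value far from the others, 2 stood out, and chance alone marks about 1 group in 20. At the block over the upper end of PLIN5 (17186085 to 17188519), corn 4 had a scaled score of 3.30, the highest of the corn fetuses, with 2.17 the next. At the block from 17208069 to 17210625, after PLIN4, hay 11 had a scaled score of 4.24, the highest of the hay fetuses, with 2.69 the next. Corn 4 also held 5 of the 8 regions of the locus that were seen in a single fetus, and it had 498464 peaks genome-wide.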

How the results depend on the processing

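No paired analysis was made, because each ewe received only 1 diet and the replicate numbers are running sample numbers that mark no pairs. No difference over the locus or its segments had a p under 0.05 under any alternative, but most of these differences were near 0 and their sign was not stable. Relative to genome cover, hay minus corn was 0.28 for the locus by either test, 0.149 before PLIN5, 0.0812 in PLIN4 and 0.436 after PLIN4, all opposite in sign to the percentages in the report. Without the flanks, covered share differed by 0.328 percentage points and peak number by 0.5, and peak number per 100000 peaks by 0.0737. Without scaling, the peak score differed by -0.25. With peaks above the 25th percentile of score only, PLIN5 differed by -0.587 percentage points. With each fetus left out in turn, differences ran from -1.71 to 0.789 percentage points in covered share (reversed in 5 of 16 cases), from -1.29 to 1.14 in peak number (6 of 16, and 0 in 1 case) and from 0.0215 to 0.126 in peak score (0 of 16).

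Adjusted limma calls in the locus stayed at 0 under each of 5 alternatives, while genome-wide calls were 3 in the report's fit, 46 without scaling, 11 with a pseudocount of 5, 1 with a peak in at least 3 fetuses and 0 with the score filter. Regions of the locus at an unadjusted limma p under 0.05 numbered 1 (the published diet region), 3 without scaling and 0 with the filter. The 2 added without scaling lie before PLIN5, at 17160148 to 17161263 and 17173443 to 17173866, with lower log2 scores in hay by -0.42 and -0.51. The log2 difference at the block over the upper end of PLIN5 turned from 0.0042 to -0.14 without scaling and -0.00097 with a pseudocount of 5, and that at 17208069 to 17210625 turned from -0.0070 to 0.0013 with the filter. The cause was not tested.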
